A study of Mus musculus with 6 samples.

Results

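Signal transducers and activators of transcription (STATs) and their feedback inhibitors were followed in interstitial macrophages, which reside in lung tissue outside the air spaces. The 9 genes were chosen by name, as the rows of the deposited count table that map to Stat2, Stat3, Stat4, Stat5a, Stat5b, Stat6, Socs1, Socs3 and Cish. They are 9 of 21965 genes in the table, and all 9 were among the 12305 genes with enough counts to be tested. RNA sequencing of polyA-selected transcripts gave 6 libraries. The WGP group (3 libraries) came from C57Bl/6 mice given 1 mg of WGP, a preparation of the fungal cell wall polymer β-glucan, into the peritoneum. The PBS group (3 libraries) came from C57Bl/6 mice given phosphate-buffered saline by the same route. Both groups were 6 to 8 weeks old, and the labels put the treatment at 6 days and the lung harvest on day 7. The cells were taken from digested lung with antibodies whose targets are not named in the sources used here. Nothing in the labels ties a library to a single mouse or to a pool, so p-values reflect library-to-library spread only. How much of that spread is technical is not known. The series concerns β-glucan training of lung macrophages ahead of metastasis, and the comparison asks which transcripts differ after that exposure.

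Cytokine receptors carry Janus kinases (JAKs) on their inner side. When a cytokine binds, the kinases phosphorylate the receptor and the STAT protein that docks there, and the STAT dimer enters the nucleus and switches on its target genes. Among those targets are the genes of the suppressors of cytokine signalling (SOCS) and of CIS, encoded by Cish, which bind the receptor or the kinase and dampen the signal. In macrophages STAT2 serves type I interferon, STAT3 serves IL-6 and IL-10, STAT4 serves IL-12, STAT5A and STAT5B serve GM-CSF, and STAT6 serves IL-4 and IL-13. Transcript levels of these genes say nothing directly about phosphorylation of the proteins.

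Library totals ran from 18254678 to 19451407 counts after WGP and from 18910786 to 20346517 counts after PBS. Levels are read counts scaled to the library total (CPM) after TMM normalisation, and log2 fold changes are WGP over PBS ± SE. The edgeR quasi-likelihood test gave the p-values, adjusted by Benjamini-Hochberg across every tested gene, and a gene is said to have changed when its adjusted p was under 0.05. Of the tested genes 15.2% rose and 15.7% fell, so 31.0% changed, and the median log2 fold change was -0.02. The summed Y-linked transcripts were 205 to 227 CPM in the WGP libraries. In PBS replicates 1, 2 and 3 they were 112, 179 and 9.79 CPM. This level, which depends on the sex of the mice, was thus uneven between the groups and partly confounded with treatment. Some of the results that turn on PBS replicates 1 and 3 are given without them as well. Fewer of all tested genes passed in such fits, 19.9% without PBS replicate 1 and fewer still without both. A lower count there is thus not particular to a list. The macrophage markers were present in every library, among them Lyz2 (at least 15892 CPM after WGP and at least 10782 CPM after PBS), Csf1r (at least 2942 CPM after WGP and at least 2228 CPM after PBS) and Adgre1 (at least 385 CPM after WGP and at least 443 CPM after PBS). Of 16 interstitial macrophage markers 4 rose, namely Lyz2, Csf1r, Fcgr1 and Cx3cr1, and 6 fell, namely Mertk, Ms4a7, Apoe, Mrc1, Cd74 and H2-Ab1. C1qa, C1qb and C1qc did not pass (adjusted p = 0.09, 0.097 and 0.083). Their log2 fold changes were -1.32, -1.30 and -1.42, with every WGP library below every PBS library. Mertk, a receptor for dying cells, was at 20.4, 24.4 and 17.0 CPM in WGP libraries, against 174, 199 and 126 CPM in PBS libraries (log2 fold change -3.01 ± 0.21, adjusted p = 0.00014), and Mrc1, the mannose receptor, fell by 2.08 on the log2 scale (adjusted p = 0.01).

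After WGP, 4 of the 6 STAT transcripts rose, none fell, and 1 of the 3 inhibitor transcripts fell. Stat2 rose 1.83-fold, Stat5b 1.54-fold, Stat5a 1.31-fold and Stat3 1.25-fold. Cish fell to 0.365 of its level in PBS libraries. Stat4, Stat6, Socs1 and Socs3 did not pass the test. In total 5 of the 9 genes changed (55.6%), where 31.0% of all tested genes did, and the median log2 fold change of the 9 was 0.19. The groups did not overlap for these same 5 genes, beside 48.1% of all tested genes. For 4 of them every WGP library exceeded every PBS library, beside 23.2% of all tested genes, and for 1 every WGP library was lower, beside 24.9%.

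**Figure D1:**
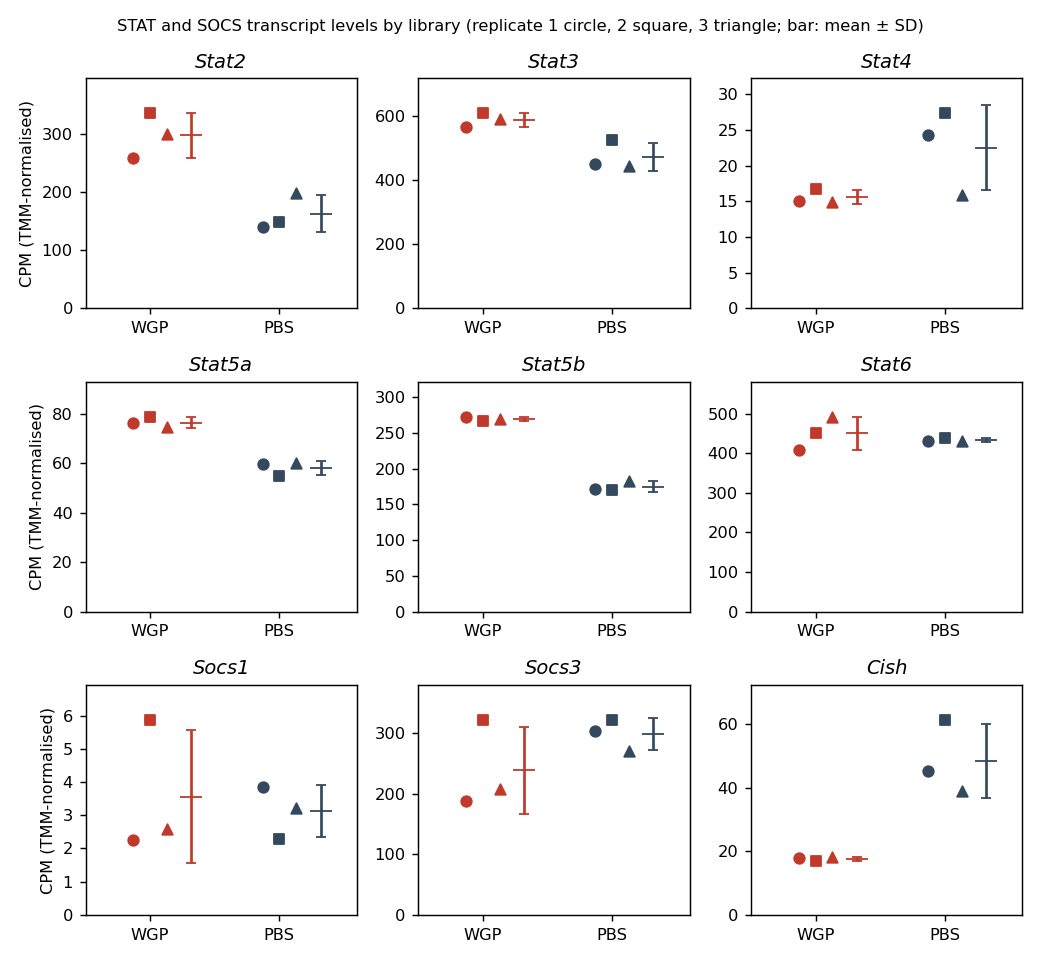
TMM-normalised CPM of the 9 genes in each WGP library (left) and each PBS library (right), with mean ± SD (n = 3). The WGP libraries lie above all PBS libraries for Stat2, Stat3, Stat5a and Stat5b and below them for Cish, while Socs1 and Socs3 are high in WGP replicate 2 alone among the WGP libraries.

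Stat2 (ENSMUSG00000040033, GRCm38 chromosome 10, 128270559 to 128292849) encodes the STAT that joins IRF9 and another STAT in the factor ISGF3, the transcription factor of the type I interferon response. It stood at 259, 336 and 300.0 CPM in WGP replicates 1, 2 and 3, against 140.1, 149 and 199 CPM in PBS replicates 1, 2 and 3. WGP replicate 2 was the highest and PBS replicate 3 came closest to the WGP libraries, but the groups did not overlap. The means were 298 ± 38.4 CPM after WGP and 163 ± 31.8 CPM after PBS (SD, n = 3), a log2 fold change of 0.87 ± 0.15 (adjusted p = 0.0041).

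The promoter window of Stat2 is shown because it holds motifs of the pathway's own factors. It runs from 250 bases before to 50 bases after the RefSeq start (GRCm38.p6, chr10:128270248-128270547, plus strand), with capitals marking an interferon-stimulated response element core (GAAANNGAAA, read on either strand) and a STAT6-type motif with a spacer of 4 (TTCNNNNGAA).
Stat2: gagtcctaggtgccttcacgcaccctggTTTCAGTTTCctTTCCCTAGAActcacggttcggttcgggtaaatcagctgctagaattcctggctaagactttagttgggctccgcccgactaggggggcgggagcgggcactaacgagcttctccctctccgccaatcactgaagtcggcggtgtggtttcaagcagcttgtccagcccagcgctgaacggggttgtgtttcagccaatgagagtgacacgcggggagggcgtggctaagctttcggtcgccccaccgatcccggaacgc
The interferon motif lies at -222 to -213 and the STAT6-type motif at -210 to -201 from the RefSeq start, with no overlap between them. The window ends before the gene start at 128270559, so the annotations differ in where Stat2 starts. Of 32851 mouse promoter windows of this length 3.44% hold the interferon motif and 6.95% the STAT6-type motif, and a match to letters does not show that a factor binds.

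Irf9, which encodes the DNA-binding partner of STAT2 in ISGF3, rose as well. It was at 188, 176 and 179 CPM in WGP libraries, against 117, 119 and 141 CPM in PBS libraries, a log2 fold change of 0.53 ± 0.08 (adjusted p = 0.0011). Of 19 tested genes known to respond to type I interferon, 14 rose and none fell, with a median log2 fold change of 0.86 against -0.02 for all tested genes. Oas3, an RNA-sensing synthetase, rose by 1.02 ± 0.11, Ifih1, an RNA sensor, by 0.75 ± 0.09, Oas2, another synthetase, by 0.80 ± 0.10 and Ddx58, another RNA sensor, by 0.62 ± 0.09. The summed level of the list was 2175, 2958 and 2691 CPM in WGP replicates 1, 2 and 3, against 1251, 1309 and 1647 CPM in PBS replicates 1, 2 and 3, so that replicate 2 was highest among WGP and replicate 3 among PBS libraries, as for Stat2. Without PBS replicates 1 and 3, 8 genes of this list rose. Ifnb1, which encodes interferon-β, had no read in any WGP library, which allows up to 3 counts in each, and 3, 8 and 2 counts in PBS libraries, too few to test.

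Stat5a and Stat5b encode close relatives that carry signals of GM-CSF and other growth factors. The genes lie head to head on chromosome 11 (GRCm38), Stat5b (ENSMUSG00000020919) at 100780731 to 100850724 on the minus strand and Stat5a (ENSMUSG00000004043) at 100859351 to 100885169 on the plus strand, with 8626 bases between them. Stat5b had the smallest p-value of the 9 genes. It was at 272, 266 and 269.9 CPM in WGP libraries, against 171, 169.9 and 183 CPM in PBS libraries. Within each group the 3 libraries lay close together, and the groups stood far apart. Means were 269.6 ± 2.95 CPM after WGP and 175 ± 7.16 CPM after PBS (SD, n = 3), a log2 fold change of 0.63 ± 0.07 (adjusted p = 1e-04).

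Stat5a was at 76.3, 78.9 and 74.6 CPM in WGP libraries, against 59.6, 55.0 and 60.2 CPM in PBS libraries. All WGP libraries were higher than all PBS libraries, with means of 76.6 ± 2.17 CPM after WGP and 58.3 ± 2.87 CPM after PBS (log2 fold change 0.39 ± 0.08, adjusted p = 0.0038). Per length of exon, Stat5b exceeded Stat5a 4.60-, 4.35- and 4.66-fold in WGP replicates 1, 2 and 3, and 3.70-, 3.98- and 3.91-fold in PBS replicates 1, 2 and 3. The transcripts of the pair share sequence, with 8.21% of the windows of 50 bases in Stat5a transcripts found in Stat5b and 11.0% of those of Stat5b found in Stat5a. Reads from such stretches can be lost or exchanged in counting, so the levels of the pair are uncertain to that extent.

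Stat3 (ENSMUSG00000004040, GRCm38 chromosome 11, 100885098 to 100939540) encodes the STAT of IL-6 and IL-10, and lies next to Stat5a with ends that overlap by 72 bases on opposite strands. It was at 565, 608 and 591 CPM in WGP libraries, against 449.6, 524 and 443 CPM in PBS libraries. The groups did not overlap, and PBS replicate 2 came nearest to the WGP libraries. Means were 588 ± 21.3 CPM after WGP and 472 ± 44.9 CPM after PBS (log2 fold change 0.32 ± 0.08, adjusted p = 0.012). Leaving out PBS replicate 1 ended this call (0.28 ± 0.09, adjusted p = 0.062), as did a covariate for Y-linked transcripts (0.24 ± 0.09, adjusted p = 0.08). With both PBS replicates 1 and 3 left out the log2 fold change was 0.17 ± 0.10 (adjusted p = 0.29).

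Stat6 (ENSMUSG00000002147, GRCm38 chromosome 10, 127642986 to 127660957) encodes the STAT of IL-4 and IL-13, the cytokines of alternative macrophage activation. It was at 409, 451 and 492 CPM in WGP libraries, against 430.4, 439 and 432 CPM in PBS libraries. The PBS values lay inside the wider range of the WGP values. The log2 fold change of 0.05 ± 0.08 did not pass (adjusted p = 0.64), with a 95% interval of -0.12 to 0.23.

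Stat4 (ENSMUSG00000062939, GRCm38 chromosome 1, 51987148 to 52107189) encodes the STAT of IL-12, best known from T and NK cells. It was at 15.1, 16.7 and 14.9 CPM in WGP libraries, against 24.3, 27.3 and 15.8 CPM in PBS libraries. PBS replicate 3 lay within the WGP range and the other PBS libraries above it. The log2 fold change was -0.53 ± 0.19 (adjusted p = 0.06). Stat4 passed without PBS replicate 3 (-0.73 ± 0.15, adjusted p = 0.0057), with Y-linked transcripts as a covariate (-0.84 ± 0.16, 0.005) and under the DESeq2 Wald test (0.049). Its log2 fold change was -0.81 without PBS replicates 1 and 3. Exons of Gm28177, a gene with no entry in the count table, overlap 26.7% of its exon length on the same strand, which makes its level uncertain too.

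Markers of T and NK cells varied between libraries, and their sum exceeded the level of Stat4 in each library. Their summed level was 37.0, 152.5 and 106.4 CPM in WGP replicates 1, 2 and 3, against 302, 193 and 256 CPM in PBS replicates 1, 2 and 3. Of 15 such genes tested 2 fell, Il7r and Klrd1, and the others did not pass. Klrd1 lost its call without any 1 library except WGP replicate 3 (adjusted p at most 0.082). Cd3e was detected in every library and Cd3d and Cd3g had no read in WGP replicate 1. The mean sum of these markers was 98.6 CPM after WGP and 250.4 CPM after PBS. The mean of Stat4, which did not pass, was 15.6 CPM after WGP and 22.5 CPM after PBS. Among PBS libraries the sum was highest in replicate 1 and lowest in replicate 2. Stat4 was highest in PBS replicate 2 and lowest in PBS replicate 3. The part of T and NK cells in the level of Stat4 was not tested. In bulk samples fewer cells of a type and less RNA per cell cannot be told apart.

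**Figure D2:**
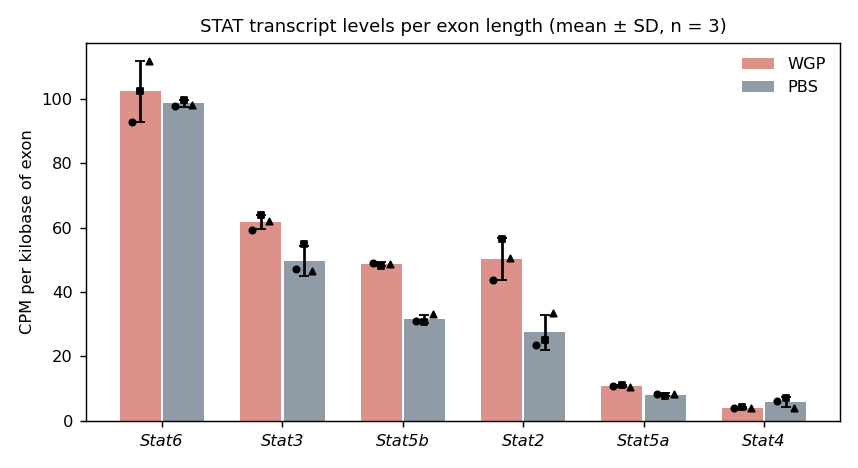
CPM per kilobase of exon of the 6 STAT genes, ordered by level in PBS libraries, with WGP bars left of PBS bars (mean ± SD, n = 3; points are libraries). Stat6 was highest in both groups, and Stat2 and Stat5b stood side by side in both groups but at a higher level after WGP.

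Per kilobase of exon, Stat6 had the highest level of these 6 STAT genes, at 102 ± 9.48 CPM per kilobase after WGP and 98.5 ± 1.04 after PBS. Stat3 came next, at 61.7 ± 2.24 after WGP and 49.5 ± 4.71 after PBS, and did not overlap Stat6 in either group. Stat2 (50.3 ± 6.48 after WGP, 27.5 ± 5.36 after PBS) and Stat5b (48.7 ± 0.53 after WGP, 31.6 ± 1.29 after PBS) overlapped each other in both groups, so their order was not resolved. Stat5a stood at 10.7 ± 0.30 after WGP and 8.17 ± 0.40 after PBS, and Stat4 was lowest, at 4.02 ± 0.25 after WGP and 5.81 ± 1.54 after PBS. As a share of the summed level of these 6 genes per length, Stat2 made up 18.1 ± 1.53% after WGP and 12.4 ± 2.26% after PBS. The share of Stat6 was 36.8 ± 1.80% after WGP and 44.6 ± 0.94% after PBS. That of Stat3 was 22.2 ± 0.64% after WGP and 22.4 ± 1.84% after PBS. The order and the shares rest on the union of all annotated exons, 9.527 kb for Stat3 and 4.402 kb for Stat6. Expressed transcripts may be shorter than that union. In CPM not divided by length Stat3 was above Stat6, with means of 588 and 451 after WGP and 472 and 434 after PBS.

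Cish (ENSMUSG00000032578, GRCm38 chromosome 9, 107296026 to 107302784) encodes CIS, which is induced by STAT5 and limits signalling from the same receptors. It was at 17.9, 17.0 and 18.2 CPM in WGP libraries, against 45.3, 61.2 and 38.8 CPM in PBS libraries. The WGP libraries lay within a narrow range, below every PBS library. Means were 17.7 ± 0.64 CPM after WGP and 48.4 ± 11.5 CPM after PBS (SD, n = 3), a log2 fold change of -1.45 ± 0.16 (adjusted p = 0.00014). The change of Cish thus ran opposite to that of Stat5a and Stat5b.

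Alveolar macrophage markers moved with Cish. Their summed level was 1442, 1818 and 1627 CPM in WGP libraries, against 6841, 8207 and 5377 CPM in PBS libraries, and 13 of 14 fell. Within PBS the order of the libraries was the same for Cish and for this sum, while within WGP Cish hardly varied. That PBS order was not particular to alveolar markers. The sums of epithelial markers, neutrophil markers and Y-linked transcripts had it too. Those of T and NK cell, B cell, dendritic cell, endothelial and fibroblast markers did not. The calls of Krt79, Siglecf, Plet1, Car4, Atp6v0d2 and Cidec were lost when some single libraries were left out (adjusted p at most 0.12). The other alveolar calls held. Markers of classical monocytes moved the other way, with 11 of 12 higher. Of these, Vcan and F13a1 lost their calls when some single libraries were left out (adjusted p at most 0.11). The gene that fell was Chil3, which is also on the alveolar list, and the other 11 summed to 14850, 11500.0 and 13150.0 CPM in WGP libraries, against 4990.0, 5099 and 5777 CPM in PBS libraries. The part of these cells in the levels of Cish and of the STAT genes that rose was not tested.

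Promoter windows of the inhibitors are shown because SOCS genes are themselves STAT targets. Each covers 250 bases before to 50 bases after the RefSeq start on GRCm38.p6. Capitals mark STAT motifs with a spacer of 3 (TTCNNNGAA, the same on both strands) and interferon-stimulated response element cores (GAAANNGAAA on either strand). Cish is at chr9:107296409-107296708 on the plus strand, Socs3 at chr11:117969317-117969616 on the minus strand and Socs1 at chr16:10785487-10785786 on the minus strand.
Cish: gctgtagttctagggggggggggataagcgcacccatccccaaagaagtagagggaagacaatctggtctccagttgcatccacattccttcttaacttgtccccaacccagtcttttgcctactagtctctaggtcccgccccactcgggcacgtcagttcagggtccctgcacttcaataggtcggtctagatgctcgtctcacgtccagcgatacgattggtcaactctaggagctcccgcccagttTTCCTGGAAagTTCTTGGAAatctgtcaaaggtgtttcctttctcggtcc
Socs3: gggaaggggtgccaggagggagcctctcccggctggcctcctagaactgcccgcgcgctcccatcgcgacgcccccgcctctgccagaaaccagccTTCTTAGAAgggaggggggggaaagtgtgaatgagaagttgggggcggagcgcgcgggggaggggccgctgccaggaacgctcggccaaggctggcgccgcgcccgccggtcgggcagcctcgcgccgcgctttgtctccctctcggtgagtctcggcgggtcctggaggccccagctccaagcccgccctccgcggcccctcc
Socs1: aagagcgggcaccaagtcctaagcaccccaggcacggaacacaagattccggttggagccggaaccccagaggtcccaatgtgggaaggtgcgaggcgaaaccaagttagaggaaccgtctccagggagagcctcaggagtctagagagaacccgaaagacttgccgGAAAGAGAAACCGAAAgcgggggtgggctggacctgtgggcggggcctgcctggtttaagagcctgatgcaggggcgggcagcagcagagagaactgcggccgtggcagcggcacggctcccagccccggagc
The Cish window holds 2 STAT motifs, at 1 to 9 and 12 to 20 counted from the RefSeq start, and Socs3 holds 1, at -154 to -146. Both windows lie inside the gene spans of GENCODE M21, the source of the gene coordinates printed here. The RefSeq starts of Cish and Socs3 are thus downstream of the GENCODE starts, and motif positions refer to the RefSeq starts alone. Socs1 holds 2 overlapping interferon cores, at -83 to -74 and -77 to -68. Of the 12 windows of the 9 genes 2 held the STAT motif, beside 8.30% of all 32851 windows, and 3 held the interferon core (those of Stat2, Socs1 and 1 of the windows of Stat4), beside 3.44%. The genes with the STAT motif fell (Cish) or did not pass (Socs3).

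Socs3 (ENSMUSG00000053113, GRCm38 chromosome 11, 117966079 to 117970047) encodes the inhibitor of receptors that share gp130, the IL-6 receptor among them. It was at 187, 320.4 and 207 CPM in WGP replicates 1, 2 and 3, against 303, 320.9 and 269.9 CPM in PBS replicates 1, 2 and 3. WGP replicates 1 and 3 lay below all PBS libraries, and WGP replicate 2 was as high as the highest of them. The log2 fold change of -0.32 ± 0.21 did not pass (adjusted p = 0.31, 95% interval -0.85 to 0.21). Without WGP replicate 2 it was -0.59 ± 0.10 (adjusted p = 0.0019). Immediate-early and heat shock genes, which tissue digestion induces, summed to 14670, 20340 and 18730 CPM in WGP replicates 1, 2 and 3, against 19530, 21110 and 19650 CPM in PBS replicates 1, 2 and 3. Of 16 such genes 8 fell and none rose, among them Jun (-0.87 ± 0.12, adjusted p = 0.00054), Hspa1b (-1.68 ± 0.31, adjusted p = 0.014) and Hspa1a (-1.27 ± 0.25, adjusted p = 0.016), whereas Fos (0.11 ± 0.11, adjusted p = 0.48), Zfp36 (-0.05 ± 0.09, adjusted p = 0.7) and Dusp1 (0.19 ± 0.11, adjusted p = 0.25), which make up much of the sum, did not pass. Both Socs3 and this sum were lowest in WGP replicate 1 and highest, among WGP libraries, in replicate 2, and the part of digestion in the level of Socs3 was not tested.

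Socs1 (ENSMUSG00000038037, GRCm38 chromosome 16, 10782240 to 10785536) encodes the inhibitor of JAKs at interferon receptors. It had the lowest level of the 9 genes, with 40, 111 and 47 counts in WGP replicates 1, 2 and 3, against 79, 44 and 68 counts in PBS replicates 1, 2 and 3. In CPM these were 2.25, 5.86 and 2.57 after WGP, against 3.84, 2.28 and 3.23 after PBS. WGP replicate 2 was the highest library of all and WGP replicate 1 the lowest. The log2 fold change of 0.19 ± 0.44 did not pass (adjusted p = 0.78), and its 95% interval of -0.77 to 1.16 covers changes in either direction. Without WGP replicate 2 the log2 fold change was -0.37 ± 0.42 (adjusted p = 0.55).

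**Figure D3:**
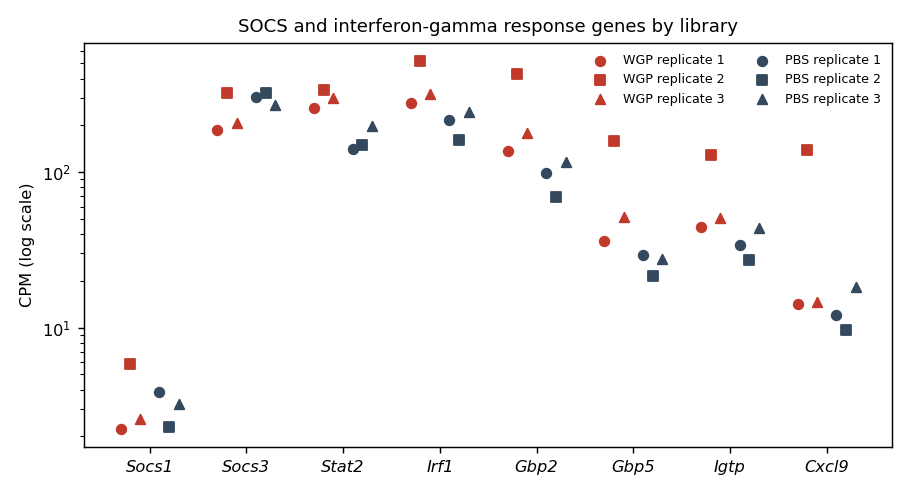
CPM on a log scale of Socs1, Socs3, Stat2 and 5 interferon-γ response genes, with the 3 WGP libraries left of the 3 PBS libraries. WGP replicate 2 (red squares) was the highest library for all of them except Socs3, where PBS replicate 2 stood at 320.9 CPM and WGP replicate 2 at 320.4 CPM.

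Genes known to respond to interferon-γ were high in WGP replicate 2, the library with the highest Socs1. Their summed level was 1555, 3135 and 1824 CPM in WGP replicates 1, 2 and 3, against 1209, 1010 and 1378 CPM in PBS replicates 1, 2 and 3. Cxcl9, a chemokine that attracts T cells, was at 14.1, 139 and 14.6 CPM in WGP libraries, against 12.1, 9.60 and 18.2 CPM in PBS libraries. Gbp5, a guanylate-binding protein, was at 36.0, 158 and 51.5 CPM in WGP libraries, against 29.3, 21.5 and 27.6 CPM in PBS libraries. Ifng itself was at 0.51, 6.86 and 0.44 CPM in WGP libraries, against 1.99, 0.78 and 1.09 CPM in PBS libraries. Il21, a cytokine of T cells, had 12 counts in all, every one of them in WGP replicate 2.

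Of 15 tested interferon-γ response genes 3 rose, namely Fcgr1 (log2 fold change 1.03 ± 0.11), Irf8 (1.03 ± 0.14) and Irgm2 (1.08 ± 0.23). That is 20% of the list, where 31.0% of all tested genes changed and 15.2% rose, and its median log2 fold change was 1.09 against -0.02 for all tested genes. The count was 6 higher and 1 lower without WGP replicate 2, 5 higher without WGP replicate 1, and 9 higher with 1 lower when dispersions were estimated without robust weighting, and 9 genes changed under DESeq2 and under limma-voom. The call of Irgm2 was lost without any 1 of the PBS libraries (adjusted p at most 0.061).

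The remaining genes of the pathway were counted from lists of JAKs, receptor chains, cytokines, other SOCS genes with Irf9, and other inhibitors. The lists were chosen with earlier results of these data known, so the shares given for them here and below are a description only. Of 62 listed genes 55 could be tested, 20 rose and 5 fell, so 45.5% changed where 31.0% of all tested genes did, with a median log2 fold change of 0.17. Without PBS replicates 1 and 3, 12 rose and 1 fell, and the share of all tested genes that changed was then 14.1%.

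**Figure D4:**
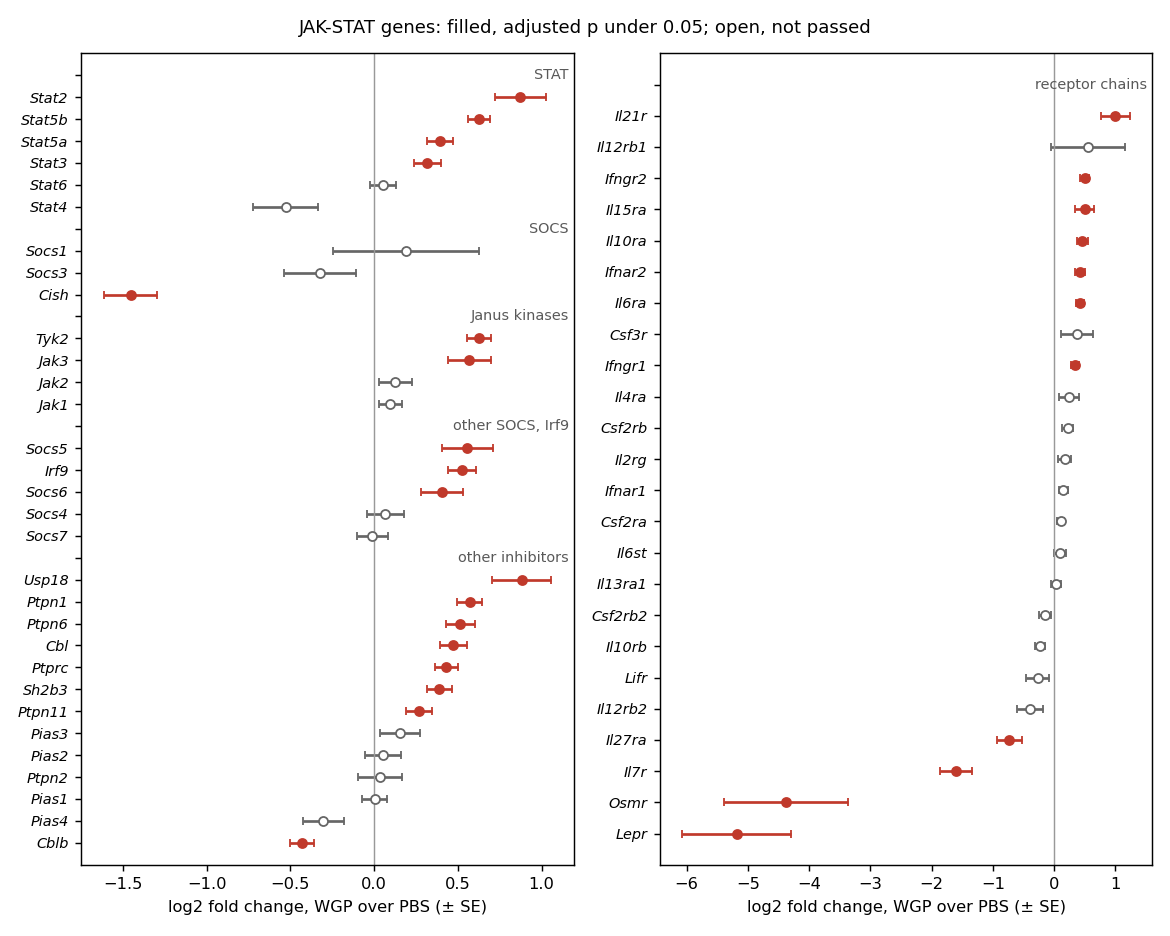
Log2 fold changes of WGP over PBS (± SE) of the pathway genes by role, with filled symbols for adjusted p under 0.05. Tyk2, Jak3 and 7 inhibitors other than SOCS lie to the right with Stat2, Stat5b, Stat5a and Stat3, while Cish is the lowest gene of the left panel and Lepr of the right.

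Among the kinases, Tyk2, which serves interferon and IL-12 receptors, was at 226, 252 and 243 CPM in WGP libraries, against 153, 149.8 and 163 CPM in PBS libraries (log2 fold change 0.63 ± 0.07, adjusted p = 0.00016). Jak3, the kinase of the common γ chain, also rose (0.57 ± 0.13, adjusted p = 0.0067). Jak1 (0.10 ± 0.07) and Jak2 (0.13 ± 0.10) did not pass (adjusted p = 0.3 for Jak1 and 0.37 for Jak2). Without PBS replicates 1 and 3, 1 of the 4 kinase genes passed. The 3 genes that rose among other SOCS genes and Irf9 were Irf9, Socs5 (0.56 ± 0.15) and Socs6 (0.41 ± 0.12), while Socs4 (0.07 ± 0.11) and Socs7 (-0.01 ± 0.09) did not pass. The calls of Socs5 and Socs6 were lost without WGP replicate 2 and, for Socs5 without PBS replicate 3 and for Socs6 without any 1 other library except PBS replicate 3 (adjusted p at most 0.1). With library sizes alone as the scaling only Irf9 of these passed.

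Of 24 receptor chains 7 rose, 4 fell and 13 did not pass. That is 45.8% of the list, where 31.0% of all tested genes changed, 15.2% rising and 15.7% falling. Ranked by p, the first to rise were Ifngr2 (0.50 ± 0.08), Il6ra (0.42 ± 0.07), Ifnar2 (0.42 ± 0.08) and Il10ra (0.46 ± 0.09), and those that fell were Lepr, Osmr, Il7r and Il27ra. Il7r is also one of the T and NK cell markers that fell. Endothelial markers fell for 8 of 10 genes tested, with sums of 99.6 to 124 CPM after WGP and 329 to 357 CPM after PBS, and fibroblast markers for 3 of 9, with sums of 20.2 to 77.1 CPM after WGP and 106 to 150.3 CPM after PBS. Epithelial markers fell for 8 of 10, with sums of 16.9 to 81.6 CPM after WGP and 381 to 793 CPM after PBS. Among the epithelial calls Sftpc was lost when any 1 library was left out, and Sftpa1 and Sftpb with some of them (adjusted p at most 0.12). Those of Epcam, Krt8, Krt18, Cldn18 and Ager held. The part of endothelial, fibroblast and epithelial cells in the levels of the receptor chains was not tested. The call of Lepr was lost without WGP replicate 3 or PBS replicate 1 (adjusted p at most 0.055). That of Il27ra was lost without WGP replicate 1 or any 1 PBS library (at most 0.058). Of the chains that rose, Il21r lost its call without PBS replicate 1 or 2 (at most 0.072). Il15ra lost its call without WGP replicate 2 or 3 or PBS replicate 1 or 2 (at most 0.14). Without PBS replicate 1, 5 receptor chains rose and 2 fell, where 19.9% of all tested genes changed. Osmr, a chain of the oncostatin M receptor, was at 0, 0.26 and 0 CPM in WGP libraries, against 1.80, 2.28 and 1.90 CPM in PBS libraries. The GM-CSF receptor chains upstream of STAT5, Csf2ra (0.10 ± 0.06) and Csf2rb (0.22 ± 0.09), did not pass (adjusted p = 0.25 for Csf2ra and 0.09 for Csf2rb), nor did Il4ra (0.25 ± 0.17, adjusted p = 0.31), the IL-4 receptor chain upstream of STAT6.

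Of 13 inhibitors other than SOCS 7 rose and 1 fell, so 61.5% changed, beside 31.0% of all tested genes. The phosphatase genes Ptpn1 (0.57 ± 0.08, adjusted p = 0.00037), which acts on JAK2 and TYK2, and Ptpn6 (0.51 ± 0.09, adjusted p = 0.0014), the myeloid SHP-1, were among those that rose, as was Ptprc (0.43 ± 0.07, adjusted p = 0.0013). Usp18, which blocks the interferon receptor at IFNAR2 and is also on the type I interferon list, rose by 0.88 ± 0.18 (adjusted p = 0.0046), and the ubiquitin ligase gene Cblb was the one that fell (-0.43 ± 0.07, adjusted p = 0.0012). None of the 4 Pias genes, whose products bind STATs, passed. Of 16 cytokine genes 9 could be tested, and only Il27, a cytokine acting through gp130, rose (0.88 ± 0.23, adjusted p = 0.015). That call was lost without WGP replicate 2, PBS replicate 1 or PBS replicate 2 (adjusted p at most 0.058). Il6 (-0.26 ± 0.39, adjusted p = 0.65) and Il10 (-0.23 ± 0.60, adjusted p = 0.81) were at no more than 8.20 CPM in any library and did not pass.

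**Figure D5:**
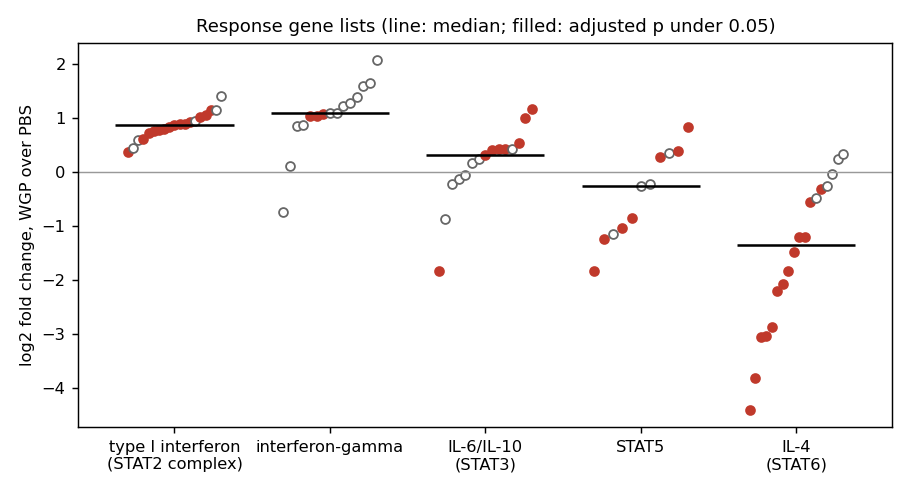
Log2 fold changes of WGP over PBS of genes known to respond to each STAT, 1 point per gene, with a line at the median of each list. Type I interferon response genes lie above 0, whereas most IL-4 response genes lie below 0 with a median of -1.35.

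Response genes of the individual STATs moved in different directions. The share that changed was 73.7% for the type I interferon list, 72.2% for STAT6, 53.3% for STAT3 and 63.6% for STAT5. Among all tested genes it was 31.0%. These lists were chosen with earlier results of these data known, so their shares are a description only. Of 18 genes known to respond to IL-4 and STAT6 in mouse macrophages 13 fell and none rose, with a median log2 fold change of -1.35, while Stat6 itself did not pass. Cdh1, epithelial cadherin, was at 3.82, 3.06 and 3.67 CPM in WGP libraries, against 29.5, 31.7 and 26.8 CPM in PBS libraries. Ccl17, a T cell chemokine, was at 4.27, 6.39 and 6.51 CPM in WGP libraries, against 44.3, 42.0 and 40.4 CPM in PBS libraries. Cd209a, a lectin, and Chil3, a chitinase-like protein, also fell (-1.49 ± 0.11 for Cd209a and -2.21 ± 0.16 for Chil3). Several genes of this list stand on other lists as well. Chil3 and Pparg are on the alveolar macrophage list, 13 of whose 14 genes fell, and Chil3 is on the monocyte list. Egr2 is on the immediate-early list, Mrc1 on the interstitial macrophage list and Cd209a on the dendritic cell list. Il4ra, given above as a receptor chain, is on this list and on the STAT3 list. Epithelial markers, given above, fell for 8 of 10 genes, and of 10 dendritic cell markers 4 fell, with sums of 101 to 143 CPM after WGP and 237 to 302 CPM after PBS. The part of those cells in these counts was not tested. Without PBS replicates 1 and 3, 8 genes of the STAT6 list fell.

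Of 15 genes known to respond to IL-6 or IL-10 through STAT3, 7 rose and 1 fell, with a median of 0.31. Il21r, counted above among the receptor chains that rose, is among these 7. Bcl3, an atypical IκB protein, was at 128, 155 and 125 CPM in WGP libraries, against 59.1, 66.2 and 56.6 CPM in PBS libraries, and rose by 1.16 ± 0.10. Tnfrsf1b, a TNF receptor, rose by 0.42 ± 0.08 (adjusted p = 0.0032) and Nfil3, a leucine zipper factor, by 0.42 ± 0.08 (adjusted p = 0.0036). The gene that fell was Myc, a growth regulator also listed for STAT5 (-1.83 ± 0.29, adjusted p = 0.0043). The count was 4 higher and 1 lower without PBS replicate 1, where 19.9% of all tested genes changed. It was the same with Y-linked transcripts as a covariate, where 24.8% of all tested genes changed.

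Of 11 genes known to respond to STAT5 other than Cish, 3 rose and 4 fell, with a median of -0.25. Bcl2, a survival gene, rose by 0.84 ± 0.09 and Pim1, a kinase gene, by 0.38 ± 0.08 (adjusted p = 0.0044). Ccnd2, a cyclin gene, fell, at 51.2, 55.1 and 50.3 CPM in WGP libraries, against 109, 115 and 98.4 CPM in PBS libraries. Bcl2l1, another survival gene, fell too (-0.86 ± 0.12, adjusted p = 0.00051), as did Myc and Id1, an inhibitor of differentiation factors (-1.24 ± 0.24, adjusted p = 0.0035). The third that rose was Ccnd3, another cyclin gene (0.27 ± 0.07, adjusted p = 0.011), whose call was lost without PBS replicate 1 (0.061). The count was 1 higher and 3 lower without PBS replicates 1 and 3.

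Across the 6 libraries, the genes whose log2 CPM most resembled Stat5b among 8223 genes with a mean of at least 10 CPM were Arhgap30 (Pearson r = 0.9997), Nhsl2 (0.9989) and Ppp1ca (0.9987). Those most like Cish were Pde3b (0.9991), Mgat4a (0.9983) and Abcc5 (0.9982). These values describe 6 libraries in 2 groups, and a gene that separates the groups well tends to give a high r.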

How the data were processed

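Bulk RNA-seq of mouse lung interstitial macrophages gave 3 WGP and 3 PBS libraries, grouped by the sample labels. The authors deposited whole-number read counts for each gene. Per the submitters' processing notes HTSeq 0.10.0, FastQC 0.10.1, GRCm38 and mm10 were used, while aligner, annotation and strand setting are not given in these sources. Reads of genes that overlap therefore cannot be told apart.

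GENCODE M21 (GRCm38) matched 99.88% of 21965 identifiers and gave symbols, coordinates and exon lengths, the union of all annotated exons. Promoter sequences are RefSeq's for GRCm38.p6, found for all 9 genes. Totals ran from 18254678 to 20346517 counts. A gene with no count has an upper limit of 3 counts per library, for counting error only.

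The 2 groups were compared with edgeR 4.0.16 (R 4.3.3; filterByExpr filter, TMM scaling, glmQLFit with robust = TRUE, two-sided quasi-likelihood F test, Benjamini-Hochberg over 12305 genes, threshold 0.05). The code was also run on simulated counts in which a small share of genes changed. That run cannot show how scaling and test behave where 31.0% of genes change. The biological coefficient of variation was 0.18. SEs are the log2 fold change over the square root of F. No exact test of 3 against 3 values gives p below 0.1. For correlations log2 CPM had a prior count of 2. The chi-square between replicates was 13.5 to 24.8 per degree of freedom, so none was a repeat of another. Same-numbered WGP and PBS libraries did not deviate together (correlations -0.06, -0.08 and -0.05), so numbers were not taken as pairs.

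The genes and lists were chosen with earlier results of these data known, and some family genes are not reported here. List genes were named by smallest p, up to 4 per list, with others chosen after their values were seen, among them Cxcl9, Gbp5, Ifng, Il21, Csf2ra, Csf2rb, Il4ra, Usp18, Mertk, Jun, Il6 and Il10. Alternatives were other scalings, filters, DESeq2 1.42.0, limma-voom (limma 3.58.1), glmQLFit without robust estimation, an adjusted p threshold of 0.1, a replicate block, a Y-linked covariate and left-out libraries.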

Additional observations from a re-analysis of the deposited data

How the results depend on the processing

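Each of the 9 log2 fold changes was read under 18 alternatives, among them the main fit with an adjusted p threshold of 0.1. Of these 162 values 150 kept their direction and side of the threshold or stayed unpassed. Another 9 passed that had not (Stat4 8 times, the threshold of 0.1 among them, and Socs3 once). The other 3 no longer passed (Stat3), and no changed gene reversed. Stat2, Stat5a, Stat5b and Cish passed under every alternative, with adjusted p of at most 0.024 for Stat2, 0.029 for Stat5a, 0.0025 for Stat5b and 0.0019 for Cish. The number of changed genes among the 9 was 4 to 6 when single libraries were left out, that of other pathway genes 18 to 24, and that of all genes 2491 to 3717, against 5, 25 and 3809. Without PBS replicates 1 and 3, 1820 genes and 13 pathway genes changed, and the lone PBS library was then assumed to vary like the WGP libraries. With the replicate number as a block 3185 genes, 25 pathway genes and 5 of the 9 changed, and no call among the 9 differed. With library sizes alone 1236 genes rose and 2460 fell, against 1874 and 1935, with the median of all tested genes at -0.12. Upper quartile scaling gave 1468 and 2203, with the median at -0.08. Under both scalings the same 4 STAT genes rose and Stat4 fell with Cish. The log2 fold change of Socs1 ran from -0.37 to 0.64 over the alternatives. Its libraries held at most 111 counts, the lowest of the 9 genes, and its sign turned without WGP replicate 2.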
